A study of Drosophila melanogaster with 9 samples.

Results

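The deadhead gene (dhd) was examined here with 8 genes tied to it by function, out of 16837 genes in the files. The set holds 3 thioredoxins (dhd, TrxT and Trx-2), 2 thioredoxin reductases (Trxr-1 and Trxr-2) and 4 chromatin factors grouped with dhd as its regulators (lid, Sin3A, BRWD3 and Snr1). The genes were chosen by symbol after the TPM values of these libraries and their fold changes between the genotypes had been seen, so their levels and fold changes are given as a description with no test. Tests are given only for genes outside this set.

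Thioredoxins are small proteins that reduce disulfide bonds in other proteins, and thioredoxin reductases restore them to the reduced form. In Drosophila, dhd encodes a thioredoxin of the female germline that is loaded into the egg, where it reduces the disulfide bonds of sperm protamines so that paternal chromatin can be rebuilt. TrxT, its divergently transcribed neighbour, encodes a testis thioredoxin, and Trx-2 the thioredoxin of most other cells. Lid, a histone demethylase, Sin3A, a corepressor, and Snr1, a subunit of the Brahma nucleosome remodeller, are known to be needed for the very high level of dhd in ovaries. BRWD3 is a bromodomain protein with WD repeats. Chd1, the gene altered in the study, encodes a nucleosome remodeller that is itself known to act on paternal chromatin in the egg.

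Per the labels, RNA came from the heads of virgin Drosophila melanogaster females aged 10 days, and 9 libraries fall into 3 groups of 3. Chd1-deficient flies are labelled Chd1[-/-] and belong to a series on deletion mutants. Flies named elav-Gal4>UAS-Chd1, here elav>Chd1, express a Chd1 transgene from the pan-neuronal driver elav-Gal4. Wild-type flies are labelled Chd1[WT/WT]. In its sample labels the elav>Chd1 group is termed rescued, whereas the series text treats rescued flies as a separate genotype and mentions no wild type. The labels leave unsaid whether the elav>Chd1 flies also have the deletion. Levels are TPM (each transcript's share of its library, corrected for transcript length), as deposited. The sequencing depth behind them is unknown. Fold changes are differences in mean log2(TPM + 0.5), which understate the change of low genes. Nothing in the labels says that libraries of 1 group were made from separate flies, so errors and p-values measure the spread between libraries, which may be technical.

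Several markers went against the labelled tissue and sex, markers of heads did not, and both differed between the groups. Chd1 averaged 19.5 ± 1.08 TPM in Chd1-deficient, 63.5 ± 0.314 TPM in elav>Chd1 and 102 ± 8.12 TPM in wild-type libraries (SD, n = 3 each). Summed TPM of 14 genes of the female germline, a tissue that heads do not have, was 2911 to 3093 in Chd1-deficient, 3248 to 3337 in elav>Chd1 and 3857 to 4412 in wild-type libraries, and none of the 14 was at 0 in a group. The sum of 6 eggshell genes, made by follicle cells of the ovary, was 10975 to 11627, 12511 to 13114 and 9853 to 11136 TPM in the same order. This sum hides a split. In Chd1-deficient against wild-type libraries 3 of the 6 were called higher and 3 lower (limma adjusted p under 0.05). Of all genes tested, 42.9% and 46% were. The log2 fold changes of the 6 eggshell genes ran from -1.22 to 0.48. The sum of 17 male germline genes was 412 to 447 TPM in Chd1-deficient, 18.8 to 22.1 TPM in elav>Chd1 and 36.7 to 41.8 TPM in wild-type libraries, with aly at 0 in all elav>Chd1 libraries. Summed TPM of 50 genes of the Y chromosome was 7.33 to 9.95, 0.133 to 0.208 and 0.428 to 0.621 in the same order. That of the 2 roX RNAs of the male X chromosome was 30.1 to 34.5, 2.04 to 2.34 and 1.95 to 2.65. The 5 neuron markers summed to 141 to 149 TPM in Chd1-deficient, 53.9 to 56.5 TPM in elav>Chd1 and 27.01 to 29.9 TPM in wild-type libraries. In the same order, 5 photoreceptor markers summed to 3759 to 3845, 1548 to 1591 and 918 to 982 TPM. The sums of 2 glia markers were 210 to 229, 97.6 to 105 and 53.4 to 54.3 TPM. A lower level of a gene in such bulk RNA cannot be told apart from fewer cells that express it, and the part of these marker differences in the results below was not tested unless a value is given.

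The transcript of dhd (FBgn0011761) was far lower in Chd1-deficient libraries than in elav>Chd1 and wild-type libraries, where it ranked among the most abundant. It measured 888, 950.2 and 878 TPM in Chd1-deficient libraries, 4579, 4826 and 4799 TPM in elav>Chd1 libraries, and 5475, 5284 and 5106 TPM in wild-type libraries. All Chd1-deficient libraries lay below all others, and the elav>Chd1 libraries lay below the wild-type libraries without overlap. The Chd1-deficient mean was 17.1% of the wild-type mean and 19.1% of the elav>Chd1 mean, and the elav>Chd1 mean was 89.5% of the wild-type mean. The log2 fold change of dhd was -2.55 (SE 0.04) in Chd1-deficient against wild-type and -2.39 (SE 0.04) in Chd1-deficient against elav>Chd1 libraries. Between elav>Chd1 and wild-type libraries it was -0.16 (SE 0.04), and this small difference turned to 0.22 when the libraries were scaled to the 14 female germline genes. The authors' deposited table gives dhd -2.47 (SE 0.03) against wild type and -2.37 (SE 0.03) against elav>Chd1.

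**Figure D1:**
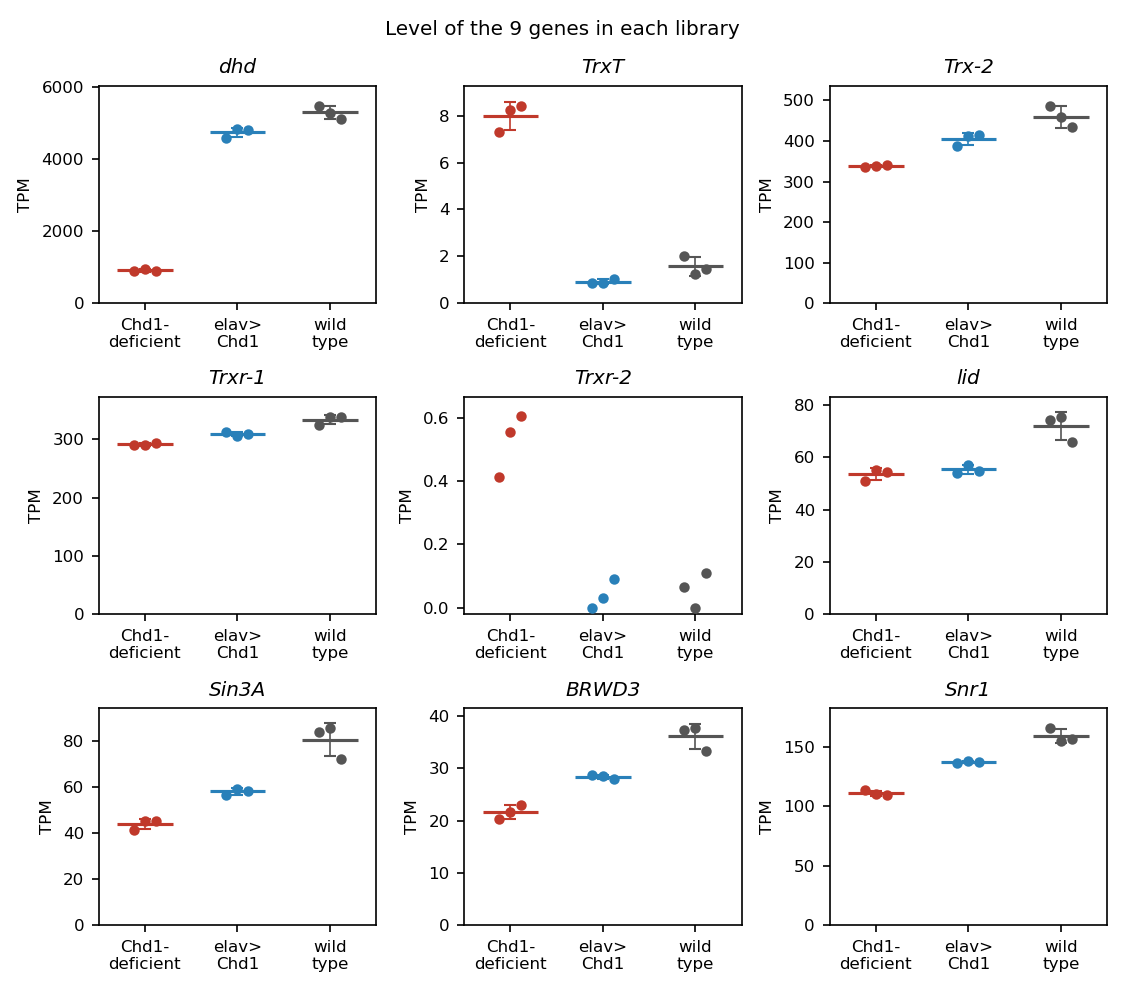
Level of each of the 9 genes in TPM (y axis, linear from 0) in every library. Points are libraries, horizontal lines are group means and bars are 1 SD (n = 3; no mean is drawn for Trxr-2, which is listed at 0 in some libraries). The 3 dhd points of Chd1-deficient libraries lie between 878 and 950.2 TPM, below the other 6, whereas TrxT is highest in Chd1-deficient libraries.

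By mean TPM, dhd ranked 178 among all genes in the Chd1-deficient group, 16 in the elav>Chd1 group and 8 in the wild-type group. Its share of the library was 0.0905%, 0.474% and 0.529% in that order. Of 11094 genes that reached 1 TPM in at least 3 libraries, 18 had a lower log2 fold change than dhd in Chd1-deficient against wild-type libraries, and 29 did in Chd1-deficient against elav>Chd1 libraries. Among the 157 genes with a wild-type mean of at least 1000 TPM, dhd had the lowest value in Chd1-deficient against wild-type libraries. After it, chosen once their values were seen, came Hsp26, a small heat shock protein, at -1.34, and the chorion genes Cp38 and Cp36 at -1.07 and -1.03.

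Genes of the female germline were lower in Chd1-deficient libraries too, but by less. All 14 fell against wild type (limma adjusted p under 0.05; 46% of all genes tested were called lower), with log2 fold changes from -0.86 to -0.21 and a median of -0.57, beside -0.05 for all genes tested. Against elav>Chd1, 10 of the 14 fell and 1 rose, where 33.7% of all genes tested were called lower, and the median was -0.16. In both comparisons none of the 14 had a lower value than dhd, which stood 1.98 below their median against wild type and 2.23 below it against elav>Chd1. In elav>Chd1 against wild-type libraries the order turned round: all 14 fell, at a background of 47.3%, with a median of -0.37, and all 14 had lower values than dhd.

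Measured within each library, dhd lay 2.57, 2.59 and 2.47 log2 units above the median of the 14 germline genes in Chd1-deficient libraries. The distance was 4.84, 4.86 and 4.81 in elav>Chd1 libraries, and 4.50, 4.49 and 4.60 in wild-type libraries. The Chd1-deficient libraries were lowest and the elav>Chd1 libraries highest, with no overlap between groups. The ratio of dhd to osk, which encodes the organiser of the germ plasm and was chosen after its values were seen, averaged 2.14 ± 0.07 in Chd1-deficient, 8.41 ± 0.05 in elav>Chd1 and 8.38 ± 0.47 in wild-type libraries (SD, n = 3 each). On that ratio the elav>Chd1 libraries lay within the range of the wild-type libraries, 8.04 to 8.91. This did not hold for every marker: the ratio of dhd to gnu, a regulator of the egg's first divisions also chosen after its values were seen, was 1.097 to 1.13 in Chd1-deficient, 5.86 to 6.29 in elav>Chd1 and 5.06 to 5.45 in wild-type libraries, with no overlap.

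**Figure D2:**
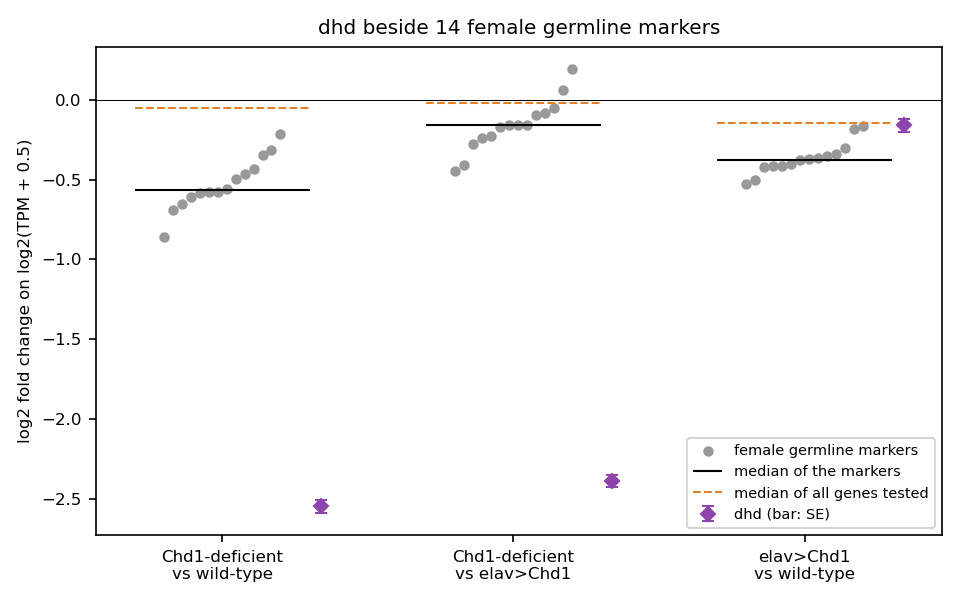
Log2 fold change on the log2(TPM + 0.5) scale (y axis) in the 3 comparisons (x axis) of the 14 female germline genes (grey points, black line at their median) and of dhd (purple diamond, bar 1 SE), with the median of all genes tested as a dashed line. dhd lies 1.98 and 2.23 below the germline median in the comparisons with Chd1-deficient libraries and 0.22 above it in elav>Chd1 against wild-type libraries.

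Over the 9 libraries, the genes whose log2(TPM + 0.5) was most like that of dhd by Pearson correlation were Cyp6w1 (0.998), lncRNA:CR43837 (0.997), Nap1 (0.996), lncRNA:CR45631 (0.994) and w (0.993). In all, 14 genes exceeded 0.99, and these values describe libraries that share the same 3 groups. Cyp6w1, a cytochrome P450, averaged 6.52 ± 0.400 TPM in Chd1-deficient, 23.5 ± 0.468 TPM in elav>Chd1 and 27.7 ± 0.769 TPM in wild-type libraries (SD, n = 3 each). The white gene w, which encodes an eye pigment transporter and is often carried by transgenes, averaged 1.86 ± 0.149, 10.1 ± 0.846 and 13.9 ± 0.577 TPM in that order. Nap1, a histone chaperone known to take part in the remodelling of sperm chromatin, had a far narrower spread of 691 ± 15.5, 947 ± 6.52 and 950.5 ± 23.2 TPM.

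In the dm6 annotation dhd lies on chromosome X from 5312171 to 5313125 on the plus strand, with 2 transcripts of 1 exon each and a product of 107 residues. TrxT lies on the minus strand from 5310581 to 5311888, and the annotated starts of the pair are 283 bases apart. The next gene on the other side, CG4198, starts 132 bases past the end of dhd. It averaged 2.54 TPM in Chd1-deficient, 2.10 TPM in elav>Chd1 and 2.499 TPM in wild-type libraries, a log2 fold change of 0.03 in Chd1-deficient against wild-type libraries (limma adjusted p = 0.83). The authors' counting is not stated to use strand, so reads from overlapping genes could not be told apart, but dhd, TrxT and CG4198 do not overlap in the annotation.

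Of 14 further genes that start within 50000 bases of dhd, 12 were tested. In Chd1-deficient against wild-type libraries 4 were called higher, of which 2 had to be, 6 fell and 2 were not called, beside 42.9% called higher and 46% called lower of all genes. Their median log2 fold change was -0.15 (all genes -0.05), and the lowest value was -0.87. Against elav>Chd1, 4 were called higher, the same 2 among them, 4 fell and 4 were not called, with a median of 0.05 and a lowest value of -0.33. CanB, the calcineurin regulatory subunit, lies 20328 bases from the dhd start, and its 21.0, 21.5 and 20.0 TPM in Chd1-deficient libraries stood above 4.31, 4.17 and 3.49 TPM in wild-type libraries (log2 fold change 2.25, limma adjusted p = 1.9e-09). SK, a potassium channel gene of neurons and muscle, was higher by 2.05 (limma adjusted p = 2.1e-09). The 2 that had to be higher were CG17764, at 1.45, and CG3323: both reached 1 TPM in 3 libraries only through the Chd1-deficient ones, so the filter set their direction and no p is given. Genes admitted in this way are also counted in the 42.9% of all genes. On the side of TrxT, snf, a spliceosomal protein gene chosen after its values were seen, fell by 0.45 (limma adjusted p = 2.9e-07). No tested gene of the window came near the fall of dhd.

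**Figure D3:**
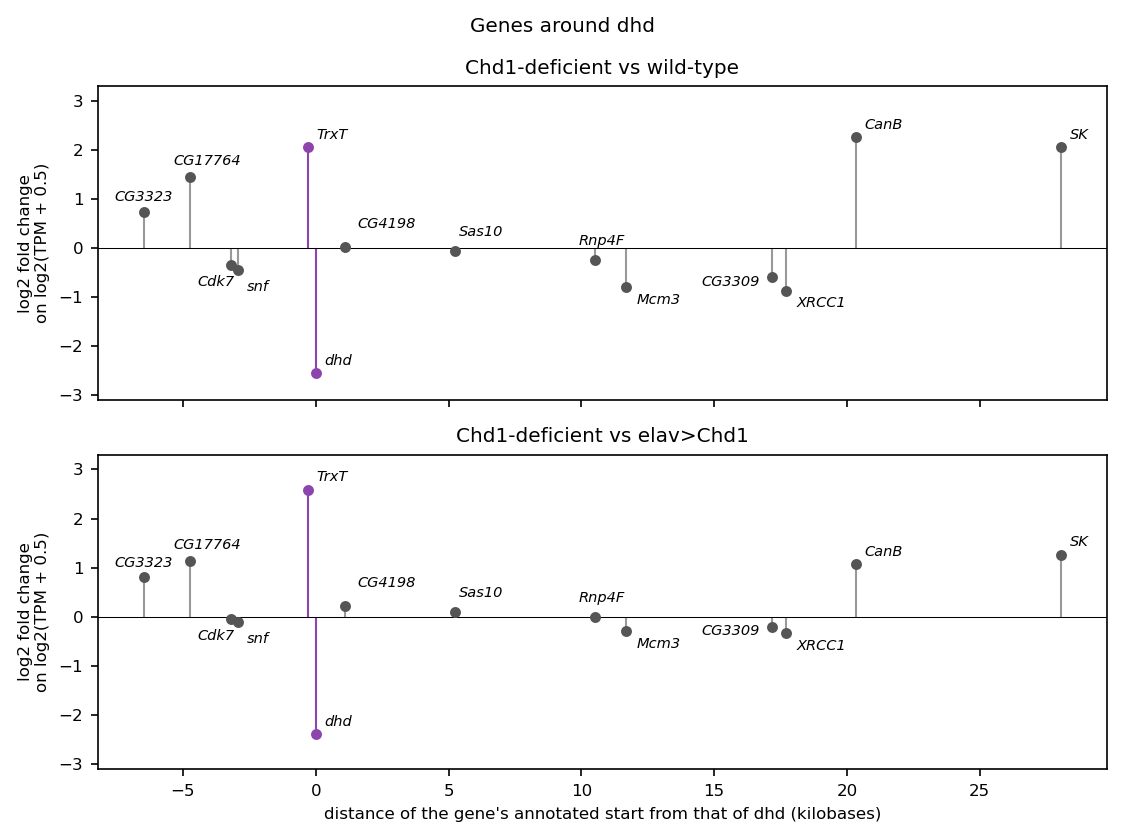
Log2 fold change on the log2(TPM + 0.5) scale (y axis) of dhd, TrxT and the 12 tested genes around them, by distance of their annotated start from that of dhd in kilobases (x axis). Top, Chd1-deficient against wild-type; bottom, Chd1-deficient against elav>Chd1. dhd, at -2.55 and -2.39, and TrxT, at 2.06 and 2.59, go opposite ways from starts 283 bases apart.

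TrxT (FBgn0029752, 3 exons, 157 residues) moved opposite to dhd. It measured 7.32, 8.23 and 8.43 TPM in Chd1-deficient libraries, 0.835, 0.874 and 1.03 TPM in elav>Chd1 libraries, and 1.99, 1.23 and 1.47 TPM in wild-type libraries. The Chd1-deficient libraries were all highest and the elav>Chd1 libraries all lowest, without overlap. The log2 fold change was 2.06 (SE 0.13) in Chd1-deficient against wild-type, 2.59 (SE 0.13) in Chd1-deficient against elav>Chd1 and -0.53 (SE 0.13) in elav>Chd1 against wild-type libraries. The authors' deposited table gives TrxT 2.44 against wild type and 3.15 against elav>Chd1. The size depended on the pseudocount: with 0.1 in place of 0.5 the values were 2.31 and 3.002, and with 1 they were 1.82 and 2.23. In elav>Chd1 against wild-type libraries these pseudocounts gave -0.69 and -0.41, and scaling to the female germline genes gave -0.26.

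The male germline list moved the same way as TrxT. Of its 17 genes 13 were tested, and all 13 were called higher in Chd1-deficient against wild-type libraries, where 42.9% of all genes were, with a median log2 fold change of 3.20. Against elav>Chd1, where 34.7% of all genes were, all 13 were again called higher, and their median was 4.29. Of the 13, Mst98Cb, dj, djl and betaTub85D reached 1 TPM in 3 libraries only through the Chd1-deficient group, so the filter set their direction, and aly, can, sa and nht never did. In elav>Chd1 against wild-type libraries 12 of the 13 fell and bol, which was chosen after its values were seen, rose, where 47.3% and 30.6% of all genes did, at a median of -1.09. The largest of the 13 in Chd1-deficient against wild-type libraries was Mst84Dc, a sperm tail component gene, at 3.83 (limma adjusted p = 2.6e-07). Its level was 72.0, 76.5 and 66.8 TPM in Chd1-deficient and 3.25, 5.93 and 4.92 TPM in wild-type libraries. TrxT lay 1.43 ± 0.12 log2 units below the median of the 13 in Chd1-deficient libraries, 0.18 ± 0.06 above it in elav>Chd1 libraries and 0.52 ± 0.62 below it in wild-type libraries (SD, n = 3 each).

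**Figure D4:**
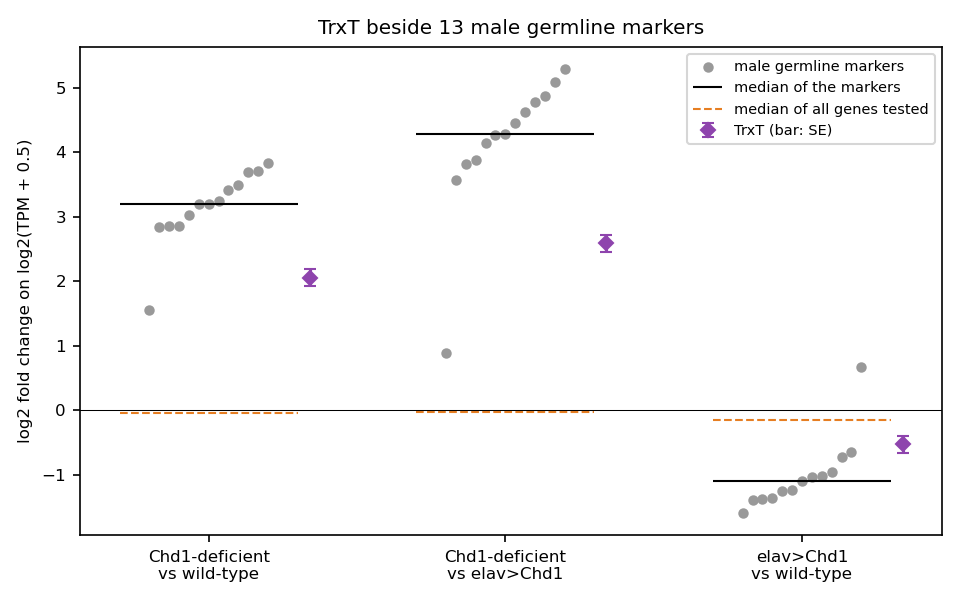
Log2 fold change on the log2(TPM + 0.5) scale (y axis) in the 3 comparisons (x axis) of the 13 tested male germline genes (grey points, black line at their median) and of TrxT (purple diamond, bar 1 SE), with the median of all genes tested as a dashed line. TrxT at 2.06, 2.59 and -0.53 has the sign of the markers' medians of 3.20, 4.29 and -1.09 in each comparison.

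Genes most like TrxT over the 9 libraries were CG16782, CG4691, djl, sut4 and CG43439, with Pearson correlations of 0.997 to 0.998. There were 105 genes above 0.99 for TrxT and 14 for dhd, but the filter keeps these counts from being compared. It admitted genes that reached 1 TPM in 3 libraries only through the Chd1-deficient group, where TrxT was highest. CG16782, djl and sut4 averaged below 1 TPM in both other groups, so the filter favoured their likeness to TrxT. CG4691 averaged 18.2 ± 0.474 TPM in Chd1-deficient, 0.346 ± 0.102 TPM in elav>Chd1 and 1.26 ± 0.412 TPM in wild-type libraries (SD, n = 3 each). Another of the 5, djl (don juan like), is a gene of the male germline list.

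Trx-2 (FBgn0040070, chromosome 2L from 9613166 to 9616404, 106 residues) differed much less than dhd. It measured 337, 338 and 341 TPM in Chd1-deficient libraries, 389, 412 and 416 TPM in elav>Chd1 libraries, and 487, 459 and 434 TPM in wild-type libraries. The groups did not overlap and kept the same order as for dhd. Its log2 fold change was -0.44 (SE 0.04) in Chd1-deficient against wild-type libraries and -0.18 in elav>Chd1 against wild-type libraries, but 0.10 and 0.19 with scaling to the female germline genes. Against elav>Chd1 it was -0.26 in Chd1-deficient libraries, and -0.094 with that scaling.

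Together the 3 thioredoxins summed to 1252 ± 38.6 TPM in Chd1-deficient, 5141 ± 150 TPM in elav>Chd1 and 5749 ± 212 TPM in wild-type libraries (SD, n = 3 each). TPM corrects for length, so shares of this sum compare the genes. The share of dhd was 72.3% in Chd1-deficient, 92.1% in elav>Chd1 and 92.0% in wild-type libraries. That of Trx-2 was 27.1%, 7.89% and 7.99% in the same order. TrxT supplied 0.639%, 0.0177% and 0.0271%. The ratio of dhd to Trx-2 was 2.67 ± 0.12 in Chd1-deficient libraries, below 11.7 ± 0.13 in elav>Chd1 and 11.5 ± 0.27 in wild-type libraries.

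Thioredoxin reductases differed little or were barely detected. Trxr-1 (FBgn0020653), the main reductase of fly cells, measured 290.1, 290.4 and 294 TPM in Chd1-deficient libraries, 313, 306 and 309 TPM in elav>Chd1 libraries, and 325, 338 and 339 TPM in wild-type libraries. Its groups did not overlap, and its log2 fold change was -0.20 (SE 0.03) in Chd1-deficient against wild-type libraries, -0.08 against elav>Chd1 instead, and -0.11 in elav>Chd1 against wild-type libraries, but 0.34, 0.08 and 0.26 with scaling to the female germline genes. Trxr-2 (FBgn0037170) never reached 1 TPM and was not tested. It was listed at 0.413, 0.556 and 0.606 TPM in Chd1-deficient libraries, 0, 0.0293 and 0.0896 TPM in elav>Chd1 libraries, and 0.0655, 0 and 0.111 TPM in wild-type libraries. The Chd1-deficient libraries were all above the rest, which overlapped one another. The authors' deposited table gives Trxr-2 3.17 (SE 0.70) against wild type and 3.73 (SE 0.82) against elav>Chd1.

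All 4 chromatin factors of the set were lower in Chd1-deficient than in wild-type libraries, by 0.42 to 0.87 on the log2 scale, so none approached the difference of dhd. With scaling to the female germline genes only Sin3A at -0.33 and BRWD3 at -0.20 were still lower, while lid at 0.11 and Snr1 at 0.02 were not. Of the 8 tested genes of the set, 7 had Chd1-deficient libraries below all wild-type libraries and 1 above them, where 45.5% and 42.8% of all genes did. Against elav>Chd1, 6 were below and 1 above, with lid overlapping, where 39.6% and 37.5% of all genes did. In elav>Chd1 against wild-type libraries all 8 were below and 0 above, where 47.6% and 30.7% of all genes were.

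Sin3A (FBgn0022764) differed most of the 4. It measured 41.3, 45.0 and 45.1 TPM in Chd1-deficient libraries, 56.6, 59.2 and 58.4 TPM in elav>Chd1 libraries, and 83.7, 85.8 and 72.3 TPM in wild-type libraries. The groups did not overlap, with elav>Chd1 in between. Its log2 fold changes were -0.87 in Chd1-deficient against wild-type, -0.40 in Chd1-deficient against elav>Chd1 and -0.47 in elav>Chd1 against wild-type libraries. Scaled to the female germline genes they were -0.33, -0.24 and -0.093 in that order. BRWD3 (FBgn0011785) measured 20.3, 21.7 and 22.9 TPM in Chd1-deficient libraries, 28.7, 28.6 and 28.03 TPM in elav>Chd1 libraries, and 37.3, 37.8 and 33.4 TPM in wild-type libraries. Its groups stood in the same order without overlap, at -0.73, -0.39 and -0.34, or -0.20, -0.23 and 0.030 with scaling to the female germline genes.

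Snr1 (FBgn0011715) measured 114, 110.3 and 109 TPM in Chd1-deficient libraries, 137, 138 and 137 TPM in elav>Chd1 libraries, and 166, 155 and 157 TPM in wild-type libraries. Again the groups did not overlap, at -0.52 (SE 0.03), -0.31 and -0.21, or 0.018, -0.14 and 0.16 with scaling to the female germline genes. For lid (FBgn0031759), which encodes the demethylase of histone H3 lysine 4, the levels were 51.1, 55.3 and 54.3 TPM in Chd1-deficient libraries, 54.0, 57.2 and 54.9 TPM in elav>Chd1 libraries, and 74.4, 75.5 and 66.0 TPM in wild-type libraries. Here the Chd1-deficient and elav>Chd1 libraries overlapped, and both lay below wild type. The log2 fold change of lid was -0.42 (SE 0.06) in Chd1-deficient against wild-type, -0.05 in Chd1-deficient against elav>Chd1 (0.12 with scaling to the female germline genes) and -0.37 in elav>Chd1 against wild-type libraries (-0.0013 with that scaling).

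Partner genes of these factors fell as well. In Chd1-deficient against wild-type libraries all 11 further genes of the Brahma complex fell, with a median log2 fold change of -0.68, as did all 9 Lid and Sin3A partners (median -0.58) and all 7 insulator and core promoter factors (median -0.73). The background was 46% of all genes called lower, with a median of -0.05, or -0.32 for the 7472 genes with at least 10 TPM in 3 libraries. When only those genes were tested, 4854 of the 7472 were called lower, and so were all 27 listed genes. With scaling to the female germline genes, 16 of these 27 fell and 3 rose, beside 1577 lower and 7710 higher of all 11094 genes. Against elav>Chd1, 8, 8 and 5 of them fell (21 in all, beside 33.7% of all genes) and the remaining 6 were not called, at medians of -0.23, -0.27 and -0.27 beside -0.02 for all genes. With the 10 TPM filter 22 of the 27 fell, beside 3398 of 7472 genes. With the germline scaling 14 of the 27 fell and 1 rose, beside 1852 lower and 5492 higher of all 11094 genes. In elav>Chd1 against wild-type libraries all 27 fell, where 47.3% of all genes did, at medians of -0.46, -0.32 and -0.42 beside -0.15 for all genes. With the 10 TPM filter all 27 fell, beside 4781 of 7472 genes. With scaling to the female germline genes 8 fell and 4 rose, beside 1187 lower and 6172 higher of all 11094 genes.

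CG7154, the Brd7-9 bromodomain subunit, and polybromo both changed by -0.88 in Chd1-deficient against wild-type libraries (limma adjusted p = 9e-08 and 1.5e-07), and mor, a scaffold subunit of the Brahma complex, by -0.73 (limma adjusted p = 5.7e-08). CG3815, the Pf1 subunit of Sin3A complexes, had 21.8, 23.4 and 23.6 TPM in Chd1-deficient and 49.9, 47.4 and 45.5 TPM in wild-type libraries. Its log2 fold change of -1.04 (limma adjusted p = 1.9e-08) was the lowest of the 27. HDAC1, the histone deacetylase of Sin3A complexes, was at -0.79 (limma adjusted p = 2.2e-08) and MRG15, a chromodomain protein, at -0.75 (limma adjusted p = 2e-07).

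Among the insulator and core promoter factors, mod(mdg4) is the one known from ovaries to act on dhd. It measured 263.0, 263 and 281 TPM in Chd1-deficient libraries, 366, 373 and 363 TPM in elav>Chd1 libraries and 455, 459.9 and 445 TPM in wild-type libraries. Its groups did not overlap, and its log2 fold change was -0.75 (limma adjusted p = 9e-09) in Chd1-deficient against wild-type libraries. The zinc finger insulator proteins su(Hw) and CTCF stood at -0.91 (limma adjusted p = 2.5e-07) and -0.73 (limma adjusted p = 1.3e-07).

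**Figure D5:**
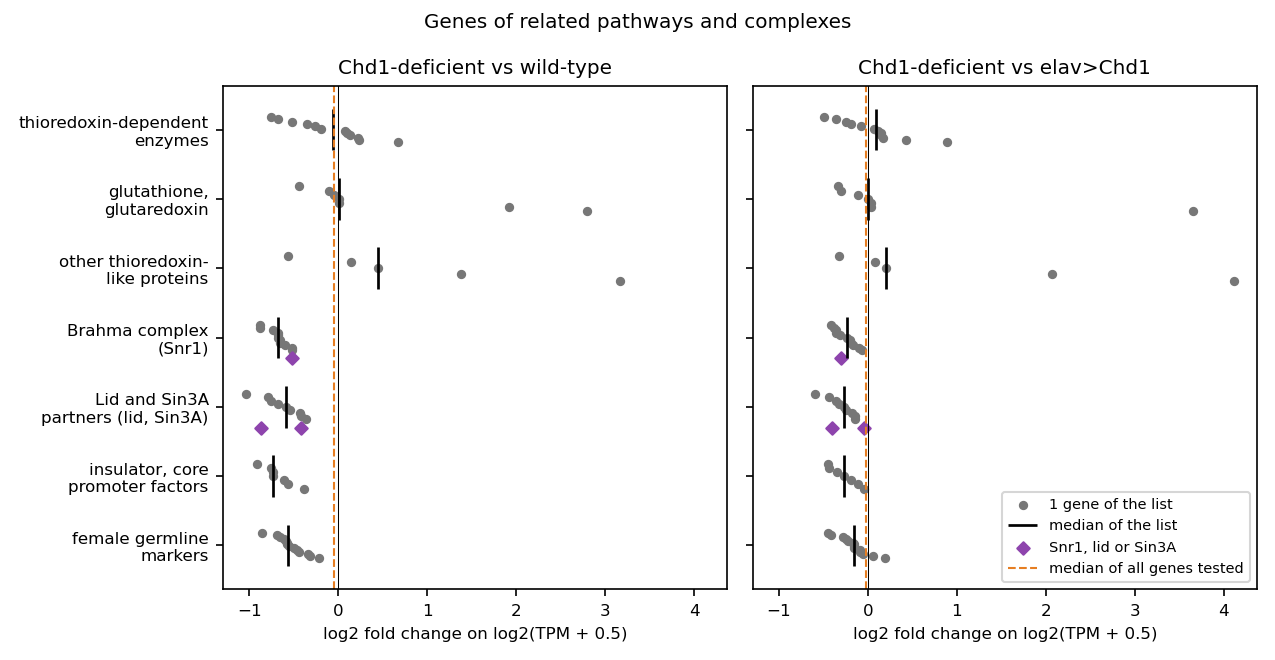
Log2 fold change on the log2(TPM + 0.5) scale (x axis) of the tested genes of 7 lists (rows; grey points are genes, black lines list medians, purple diamonds Snr1, lid and Sin3A, dashed lines the median of all genes). Left, Chd1-deficient against wild-type; right, Chd1-deficient against elav>Chd1. The row labelled thioredoxin-dependent enzymes holds the peroxiredoxins and other enzymes grouped with the thioredoxins. Genes of the Brahma complex and the partners of Lid and Sin3A lie below 0 in Chd1-deficient against wild-type libraries, at medians of -0.68 and -0.58. With scaling to the female germline genes 16 of the 27 regulator genes still fell and 3 rose, beside 1577 lower and 7710 higher of all 11094 genes.

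Among peroxiredoxins and other enzymes grouped here with the thioredoxins, both directions occurred, as they did among all genes. The list was not limited to enzymes that draw on thioredoxin. Of 12 tested, 4 rose, 6 fell and 2 were not called in Chd1-deficient against wild-type libraries, beside 42.9% of all genes called higher and 46% called lower, at a median of -0.06. Against elav>Chd1, 5 rose, 4 fell and 3 were not called, beside 34.7% and 33.7% of all genes, at a median of 0.09. Directions in this list and the next 2 depend on scaling. Of their 24 tested genes, 10 were called higher and 9 lower against wild type. The 10 include Grx1t, CG8517 and CG13473, whose direction the filter set or favoured. With scaling to the female germline genes 19 were called higher and 2 lower, beside 7710 and 1577 of all 11094 genes. Both ribonucleotide reductase subunits, which make deoxyribonucleotides, were lower in Chd1-deficient than in wild-type libraries. RnrL had 157, 165 and 166 TPM in Chd1-deficient and 286, 287 and 253 TPM in wild-type libraries (log2 fold change -0.76, limma adjusted p = 2e-07). RnrS was at -0.67 (limma adjusted p = 1.4e-08). The peroxiredoxin gene Prx2540-2 had 31.5, 33.0 and 30.5 TPM in Chd1-deficient and 19.7, 20.1 and 19.1 TPM in wild-type libraries (log2 fold change 0.68, limma adjusted p = 3.8e-05). It is a near copy of Prx2540-1, so the split between them is uncertain, but their sum was 80.3 ± 3.80 TPM in Chd1-deficient, 52.9 ± 1.49 TPM in elav>Chd1 and 61.0 ± 1.92 TPM in wild-type libraries (SD, n = 3 each).

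The glutathione and glutaredoxin system also takes part in the reduction of disulfides in cells. Of its 7 genes, 2 were called higher, 2 lower and 3 in neither direction in Chd1-deficient against wild-type libraries, beside 42.9% and 46% of all genes. Of the 2 called higher, Grx1t had to be. Against elav>Chd1, only Grx1t, which had to be, was called higher, 2 were called lower and 4 in neither direction, beside 34.7% and 33.7% of all genes. Grx1t, a glutaredoxin gene, had 6.51, 5.94 and 6.55 TPM in Chd1-deficient libraries, 0, 0.131 and 0 TPM in elav>Chd1 libraries and 0.424, 0.136 and 1.12 TPM in wild-type libraries (log2 fold change 2.80 against wild type). It reached 1 TPM in 3 libraries only through the Chd1-deficient ones, so the filter set its direction and no p is given. The glutathione synthetases Gss1 and Gss2 are near-identical copies whose reads can be split between them. Gss2 rose by 1.92 (limma adjusted p = 2.5e-06) and Gss1 fell by 0.44 (limma adjusted p = 0.00013) against wild type. Their sum was 63.8 ± 0.712 TPM in Chd1-deficient, 78.9 ± 1.33 TPM in elav>Chd1 and 65.5 ± 1.27 TPM in wild-type libraries (SD, n = 3 each).

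Of 6 further thioredoxin-like genes, 5 were tested. In Chd1-deficient against wild-type libraries 4 were called higher, of which the filter favoured 2, and 1 lower, beside 42.9% and 46% of all genes. CG8517 had 12.7, 13.3 and 13.7 TPM in Chd1-deficient libraries, 0.387, 0.460 and 0.0762 TPM in elav>Chd1 libraries and 0.761, 1.16 and 1.20 TPM in wild-type libraries. Its log2 fold change against wild type was 3.17. CG13473 had 1.24, 1.77 and 1.82 TPM in Chd1-deficient libraries and was listed at 0 in all 3 elav>Chd1 libraries, beside 0.368, 0.478 and 0.109 TPM in wild-type libraries. Neither would have passed the filter without Chd1-deficient libraries. The filter set the direction of CG13473 and favoured that of CG8517, so no p is given for either. Txl, a thioredoxin-like gene measured at 139 to 141 TPM in Chd1-deficient and 204 to 211 TPM in wild-type libraries, fell by 0.57 (limma adjusted p = 2e-08).

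Genes for sperm chromatin and its handling at fertilisation, where dhd acts, were called in both directions. Of 10 tested, 3 were called higher, of which 2 had to be, 6 lower and 1 in neither direction in Chd1-deficient against wild-type libraries, beside 42.9% and 46% of all genes. Against elav>Chd1, 5 were called higher, the same 2 among them, 4 lower and 1 in neither direction, beside 34.7% and 33.7% of all genes. The 3 higher against wild type were those for sperm nuclear proteins. Mst77F, a linker histone-like gene of sperm, was higher by 2.64 (limma adjusted p = 7.5e-08). Mst77F had 11.5, 11.2 and 8.77 TPM in Chd1-deficient and 1.08, 1.65 and 1.09 TPM in wild-type libraries. The protamine genes ProtA and ProtB, near copies of each other, had log2 fold changes of 2.53 and 2.68 with no p given, because they reached 1 TPM in 3 libraries only through the Chd1-deficient ones and the filter set their direction. All 3 are known to be expressed late in spermatogenesis, and the male germline list described with TrxT rose in the same libraries; its part in these values was not tested.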

How the data were processed

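RNA-seq was measured in 9 libraries, 3 per genotype. The deposited values are TPM per gene and library, made by the authors. Salmon and DESeq2 appear in the submitters' processing notes with neither a version nor a role, and a genome build was not given in the sources used here. Per the file headers, further tables from the authors hold log2 fold changes, their standard errors and p-values; they list 5307 genes (Chd1-deficient against wild type) and 3546 genes (against elav>Chd1). Of the 9 genes described, dhd, TrxT and Trxr-2 are in both. Of the genes listed, 238 and 270 in that order have a negative value, whereas 5101 and 3736 genes were called lower here. Absence of a gene from the authors' tables therefore cannot be read as no difference.

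The 9 genes, the lists and the markers were chosen with earlier results of these data known. Values were transformed to log2(TPM + 0.5), with no further scaling. Limma-trend fitted all 9 libraries with 1 mean per genotype, and Benjamini-Hochberg adjustment ran over the 11094 genes that reached 1 TPM in 3 or more libraries, at a threshold of 0.05. This filter can admit genes through 1 group alone, and the shares of all genes called count such genes too. In Chd1-deficient against wild-type libraries 4758 of 11094 genes were called higher. Without Chd1-deficient replicate 1, when that group alone could admit none, it was 3628 of 10047. Beside the 9 genes, the text names the 3 tested genes with the largest absolute log2 fold change (Chd1-deficient against wild type) in each list, the gene on each side of dhd and the 5 genes most correlated with dhd and with TrxT; genes outside this rule were chosen after their values were seen. Markers named apart serve as checks. Positions are from the Ensembl 115 annotation of BDGP6.54 (dm6). Current symbols there are Trx2, Trxr1 and Kdm5 for Trx-2, Trxr-1 and lid.

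Alternatives were leaving out each library, dropping the filter, raising it to 10 TPM in 3 libraries, fitting only the groups compared, blocking on the replicate number, scaling by median ratios, changing the pseudocount to 0.1 or 1 and, added after seeing the data, scaling to the median of the 14 female germline genes. Models were run with limma 3.58.1 in R 4.3.3, and tables and plots were made with pandas 2.3.3 and matplotlib 3.10.9 in Python 3.11.15. The procedure was tested on simulated data in which few genes differed between groups, unlike in these data.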

Additional observations from a re-analysis of the deposited data

How the results depend on the processing

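Over all alternatives run, dhd kept its direction in Chd1-deficient against wild-type (-2.58 to -2.01) and against elav>Chd1 libraries (-2.42 to -2.22), and TrxT did too (1.82 to 2.503 and 2.23 to 3.002). Scaling to the 14 female germline genes, added after seeing the data, gave dhd -2.01 and -2.22 in these comparisons and 0.22 in elav>Chd1 against wild-type libraries, the reverse of -0.16, where median-ratio scaling gave -0.11. By construction it raises most genes, with a median of all genes of 0.46, 0.14 and 0.19 in the 3 comparisons. In Chd1-deficient against wild-type libraries it called 7710 genes higher and 1577 lower, 19 redox genes (of 24 tested) higher and 2 lower, and 3 regulator genes (of 27) higher and 16 lower, and reversed Trx-2 (0.10), Trxr-1 (0.34), lid (0.11) and Snr1 (0.018). Against elav>Chd1 it called 1852 genes lower, 15 redox genes higher and 3 lower, and 1 regulator gene higher and 14 lower (in place of 21), and reversed Trxr-1 (0.080). In elav>Chd1 against wild-type libraries it called 6172 genes higher and 1187 lower, 17 redox genes higher and 4 lower, and 4 regulator genes higher and 8 lower, and reversed Trx-2 (0.19), Trxr-1 (0.26), BRWD3 (0.030) and Snr1 (0.16). The filter at 10 TPM tests fewer genes and called 1855, 1596 and 1579 higher in the 3 comparisons. Redox genes called higher in elav>Chd1 against wild-type libraries were 4, but 2 with only those groups fitted and 2 to 5 with a library left out (2 without elav>Chd1 replicate 1 or 2, or wild-type replicate 1 or 2); the cause was not tested. No direction among the 8 tested genes of the set changed under these alternatives other than those given and that of lid, whose Chd1-deficient and elav>Chd1 libraries overlap and whose -0.05 became 0.12 under the germline scaling. Its value in elav>Chd1 against wild-type libraries became -0.0013. Without depth, counting error cannot be given for low genes such as Trxr-2.

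With the replicate number as a block, the redox genes called higher in elav>Chd1 against wild-type libraries were 2 in place of 4. Libraries with the same number correlated at -0.16 to 0.11 in their deviations from the group means, and 1 of 9 pairs exceeded 0.1. Libraries with different numbers correlated at -0.15 to 0.18. Same-numbered libraries were thus no more alike by this measure, which cannot tell whether they were handled together.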
